A study of Mus musculus with 9 samples.

Results

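The nuclei described here carried RNA of both Havcr1 and Vcam1 in mouse kidneys collected after ischemia-reperfusion injury (IRI). They were chosen from the UMI counts alone: at least 1 UMI (a unique molecular identifier, which tags 1 captured RNA molecule) of Havcr1, at least 1 UMI of Vcam1, and fewer than 3 UMIs of Slc12a1 and Umod together, the markers of the thick ascending limb. By this rule there were 2560 both-gene nuclei among the 14622 nuclei of 5 IRI libraries, and 27738 nuclei in the whole series. Day 28 mice 1, 2 and 3 gave 164, 557 and 240 of them, and day 7 mice 1 and 2 gave 932 and 667. The same rule left 3903 nuclei with Havcr1 and no Vcam1 UMI (Havcr1-only), 1824 with Vcam1 and no Havcr1 UMI (Vcam1-only), 5552 with neither and 783 with 3 or more UMIs of Slc12a1 and Umod.

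The IRI mice had the genotype Krt20T2A-CE; INTACTnuGFP/+, received tamoxifen at 0.05 mg/g, had both renal pedicles clamped for 18 min, and were killed at day 28 (3 mice) or day 7 (2 mice). GFP-positive nuclei were flow-sorted, so what is described covers nuclei tagged through Krt20, a keratin of injured tubule cells, and not the whole kidney. Serum creatinine at 48 h was 0.488, 0.208 and 0.228 mg/dL in day 28 mice 1 to 3, and 0.255 and 0.133 mg/dL in day 7 mice 1 and 2. The 4 control libraries (3 sham-operated, 1 without surgery) came from Six2TGC; Rosa26rtTA; pTRE-H2BeGFP mice fed doxycycline food at 625 mg/kg, in which GFP marks adult nephron nuclei. All mice were male and 11 to 19 weeks old. The controls thus differed from the IRI mice in genotype and label as well as in injury, and these cannot be told apart.

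Havcr1 encodes KIM-1, a receptor for phosphatidylserine that appears on proximal tubule cells after injury and lets them take up dying neighbours. Vcam1 encodes an adhesion molecule that binds integrins on leukocytes, is induced through the transcription factor NF-kB, and is known in the kidney as a marker of proximal tubule cells that fail to regain their normal form. A nucleus with RNA of both genes therefore holds at once a marker of acute injury and a marker of failed repair.

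NF-kB binds a short DNA element, the kappaB motif, and some genes of the NF-kB and chemokine list carried it next to their start. The motif (3 G, 2 of any base, 3 T and 2 C, in that order) was searched on both strands in RefSeq promoters of build GRCm38.p6, from 250 bases before to 50 bases after each gene's start, and TGANTCA, the motif of AP-1, was counted separately with overlaps between the motifs allowed. The kappaB motif occurred in 535 of 32851 promoters (1.63%) and TGANTCA in 2565 (7.81%). Of the 19 NF-kB and chemokine genes that were higher in both-gene than in Havcr1-only nuclei, 13 had a promoter in the table, 5 of these (Nfkbia, Tnfaip3, Cxcl1, Cxcl2 and Csf1) held the kappaB motif and 2 held TGANTCA. Of the 6 other genes of the list, 5 had a promoter, of which 4 (Nfkb2, Rel, Ccl20 and Il6) held the kappaB motif and 2 held TGANTCA. Ccl20 and Il6 were not among the 23 genes of the list that were tested, so they are not known to be unchanged. A match is a stretch of letters and not a measured binding site, and an absent match says nothing about the factor. Promoters of the inhibitors Nfkbia (chr12:55492598-55492897, minus strand) and Tnfaip3 (chr10:19015361-19015660, minus strand) and of the neutrophil chemokines Cxcl1 (chr5:90890995-90891294, plus strand) and Cxcl2 (chr5:90903649-90903948, plus strand) are printed in the direction of transcription. They were picked among genes of the main result, and only promoters that held the kappaB motif are shown. Tnfaip3 had 2 promoters, of which 1 held the motif. Icam1, which was also higher, had 1 promoter and no match. Capitals mark each match of the kappaB motif on either strand.
Nfkbia: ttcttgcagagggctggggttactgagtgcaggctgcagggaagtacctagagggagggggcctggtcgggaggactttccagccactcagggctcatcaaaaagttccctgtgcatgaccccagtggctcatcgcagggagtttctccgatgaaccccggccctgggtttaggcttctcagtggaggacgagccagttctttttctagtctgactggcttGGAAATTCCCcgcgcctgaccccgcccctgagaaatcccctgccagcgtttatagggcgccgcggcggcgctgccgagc
Tnfaip3: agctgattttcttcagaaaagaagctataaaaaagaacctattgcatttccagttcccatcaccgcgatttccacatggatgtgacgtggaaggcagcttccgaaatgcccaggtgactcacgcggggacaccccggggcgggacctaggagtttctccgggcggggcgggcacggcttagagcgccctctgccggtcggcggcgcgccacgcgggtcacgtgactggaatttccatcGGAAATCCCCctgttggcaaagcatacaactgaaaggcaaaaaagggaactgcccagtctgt
Cxcl1: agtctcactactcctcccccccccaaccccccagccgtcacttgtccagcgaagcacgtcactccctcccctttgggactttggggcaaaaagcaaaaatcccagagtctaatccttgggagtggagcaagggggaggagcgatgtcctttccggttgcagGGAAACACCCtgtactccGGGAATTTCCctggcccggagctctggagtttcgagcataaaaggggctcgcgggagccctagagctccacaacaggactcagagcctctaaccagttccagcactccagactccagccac
Cxcl2: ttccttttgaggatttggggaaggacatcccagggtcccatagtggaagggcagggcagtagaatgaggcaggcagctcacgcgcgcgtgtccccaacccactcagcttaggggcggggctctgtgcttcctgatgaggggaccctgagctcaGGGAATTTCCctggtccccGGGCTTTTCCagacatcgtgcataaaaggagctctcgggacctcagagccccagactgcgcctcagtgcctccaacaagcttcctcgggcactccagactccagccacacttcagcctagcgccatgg

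The 5 IRI libraries held 1397 to 3928 nuclei and 2409411 to 14641038 UMIs each, with a median of 1185 to 4174 UMIs per nucleus. Malat1, a nuclear RNA, took 17.2%, 17.6% and 16.0% of all UMIs in day 28 mice 1 to 3, against 10.3% and 6.74% in day 7 mice 1 and 2. Day 28 mouse 1 stood apart: all of its cell barcodes opened with a run of 7 bases that also opens a barcode of the non-surgery control, as in the shams, against 11.7% to 14.0% of the barcodes of the other IRI libraries. The labels name 2 kit versions without saying which library had which, so this split and its part in the differences between the days were not tested; the counts of each comparison are also given without day 28 mouse 1. The 10 pairs of IRI libraries shared 13 barcodes in all, 1 of them between both-gene nuclei. The labels name no separate cultures or batches beyond the mouse, each library is 1 mouse, and nuclei of 1 mouse are not replicates, so every comparison is over libraries.

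The both-gene nuclei carried RNA of proximal tubule markers, and no level of control nuclei is set beside them here. Levels are given as CPM, the UMIs of a gene per 1000000 UMIs summed over the nuclei, for day 28 mice 1, 2 and 3 and then day 7 mice 1 and 2. Pax8, a transcription factor of the nephron epithelium, stood at 1094, 1046 and 848 CPM at day 28, and 1503 and 1506 CPM at day 7. Lrp2, which encodes the endocytic receptor megalin, stood at 291, 302 and 260 CPM at day 28, and 435 and 408 CPM at day 7. Slc34a1, the phosphate transporter of the proximal tubule, stood at 326, 158 and 283 CPM at day 28, and 251 and 326 CPM at day 7, while Slc22a6, an organic anion transporter of mature proximal tubule, stayed at or under 15.1 CPM. Markers of other cell types were at 0 for some genes and well above it for others. Among the 10 endothelial markers, which summed to 25.1 to 147 CPM, Egfl7 had no UMI in any of the 5 libraries, Cdh5 stood at 0 to 3.79 CPM, Flt1 at 4.35 to 34.1 CPM and Ptprb at 11.9 to 51.2 CPM. The 12 stromal markers summed to 19.3 to 57.95 CPM. Of the leukocyte markers, which summed to 47.4 to 106 CPM, Ptprc stood at 0.743 to 5.79 CPM and Cd74 at 23.2 to 79.5 CPM. The podocyte genes Nphs1 and Synpo stood at 0 to 3.12 CPM and 34.3 to 90.8 CPM, and Egf, of the distal nephron, at 6.24 to 56.8 CPM. Whole lists were also summed in the both-gene nuclei of the first comparison below. The 13 distal and collecting duct markers summed to 564 to 1070 CPM. The thick ascending limb list, without Slc12a1 and Umod, summed to 442 to 541 CPM. The podocyte and parietal list summed to 2047 to 2552 CPM and the proximal tubule transport list to 5071 to 6516 CPM. Slc12a3, of the distal convoluted tubule, stood at 401, 87.1 and 119.6 CPM at day 28, and 27.1 and 123 CPM at day 7. Its highest value was in day 28 mouse 1, where it exceeded both Slc34a1 and Lrp2. Of the 2560 both-gene nuclei, 161 (6.29%) had 3 or more UMIs of endothelial (85), stromal (26), leukocyte (41) or podocyte (15) markers.

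Since Havcr1 and Vcam1 chose the nuclei, their levels are a description with no test. The both-gene nuclei held a median of 1489, 3320 and 5222.5 UMIs at day 28, and 4809 and 2810 UMIs at day 7. Havcr1 stood in them at 1238, 795 and 595 CPM at day 28, and 1379 and 1293 CPM at day 7. Vcam1 stood at 2302, 1035 and 1083 CPM at day 28, and 591 and 703 CPM at day 7. Vcam1 thus exceeded Havcr1 in all 3 day 28 libraries and was below it in both day 7 libraries. Over all both-gene nuclei, 1352 had more Havcr1 than Vcam1 UMIs, 727 had more Vcam1 and 481 had equal numbers. Nuclei with more Havcr1 made up 26.8%, 39.1% and 25.8% of them at day 28, and 67.7% and 59.5% at day 7. The highest counts in 1 nucleus were 60 UMIs of Havcr1 and 49 of Vcam1, 334 nuclei (13.0%) had exactly 1 UMI of each, and 1144 had 2 or more of each. At the edge of the rule, the 19 both-gene nuclei with 2 UMIs of Slc12a1 and Umod had a median of 4473 UMIs in all, 5 of Havcr1 and 2 of Vcam1, and the 6 nuclei left out with 3 had 11564, 14.5 and 3.

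As a share of nuclei with fewer than 3 Slc12a1 and Umod UMIs, both-gene nuclei made up 9.60% (95% exact binomial interval 8.24 to 11.1), 14.9% (13.8 to 16.1) and 18.3% (16.2 to 20.5) at day 28, and 25.6% (24.2 to 27.1) and 19.4% (18.1 to 20.7) at day 7. Intervals cover counting error only. In the controls the rule found 2, 0 and 4 nuclei in the 3 shams and 2 in the non-surgery library, and the 0 of 2266 nuclei in sham 2 allows a share of up to 0.132%. To compare libraries at 1 depth, each nucleus was thinned to 1000 UMIs, which left out 29 to 619 shallower nuclei per IRI library. Thinned, both-gene nuclei made up 8.60%, 4.74% and 4.70% at day 28, and 9.72% and 9.02% at day 7, with 6.01% ± 2.24 (SD, n = 3) at day 28 and 9.37% ± 0.495 (SD, n = 2) at day 7. Each day 28 library lay below both day 7 libraries, and the difference of -3.36 percentage points had p = 0.2 in a two-sided exact permutation test, in which the smallest p that 3 against 2 libraries allow is 0.1. The size of the difference moved with the depth, to -1.25 points (p = 0.2) thinned to 500 UMIs, -8.66 points (p = 0.1) thinned to 2000 UMIs and -8.24 points (p = 0.2) unthinned, by the same exact test, and without day 28 mouse 1 it was -4.65 points. In the thinned controls the share was 0 to 0.0744%.

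The shares of the one-gene nuclei were also set side by side. Thinned to 1000 UMIs, Havcr1-only nuclei made up 11.3%, 13.6% and 7.29% at day 28, and 40.2% and 39.0% at day 7. Vcam1-only nuclei made up 19.0%, 15.3% and 23.7% at day 28, and 6.39% and 6.27% at day 7. Neither range overlapped between the days. As these shares sum with the both-gene share over the same nuclei, they are not independent of it.

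A single UMI can also come from free RNA. Nuclei with 3 or more UMIs of endothelial markers, a cell type that should lack Havcr1, held a Havcr1 UMI in 10.5%, 8.74% and 10.0% at day 28, below the 20.1%, 32.8% and 27.1% of all nuclei with few thick limb UMIs. At day 7 they held one in 62.7% and 51.2%, against 66.4% and 61.7% of all such nuclei. The share with both genes among these endothelial-marker nuclei was 5.26%, 1.94% and 8.33% at day 28, and 32.3% and 18.7% at day 7, where their median depth was 3761 and 2104 UMIs, against 3175 and 1945 UMIs in all such nuclei. Nuclei with 3 or more Slc12a3 UMIs held both genes in 5.80%, 10.3% and 14.8% at day 28, and 15.9% and 21.4% at day 7. Nuclei with 3 or more leukocyte marker UMIs held both in 7.14%, 7.69% and 13.5% at day 28, and 23.8% and 24.4% at day 7. The shares of all nuclei with few thick limb UMIs were 9.60%, 14.9% and 18.3% at day 28, above all 3 kinds of nuclei in each mouse, and 25.6% and 19.4% at day 7, where at least 1 kind lay above them in each mouse. At day 28 the median depth of all such nuclei was 1204, 2850 and 4205.5 UMIs. It was 941, 1144 and 1644 UMIs in endothelial-marker nuclei and 1165, 1167 and 1813.5 UMIs in leukocyte-marker nuclei. In Slc12a3 nuclei it was 1025, 3017 and 5020 UMIs. These shares were not matched for depth, and the part of depth in them was not tested. At day 7 the share with at least 1 UMI of each gene thus did not stand above that of every kind of nuclei with other types' markers, and the source of these UMIs was not tested. Within a depth band, Vcam1 was found more often in nuclei with Havcr1 than in nuclei without it. At 4000 to 8000 UMIs the shares were 54.8% with Havcr1 against 39.5% without it in day 28 mouse 2. The figures were 72.8% against 58.2% in day 28 mouse 3, 47.1% against 23.4% in day 7 mouse 1 and 47.0% against 21.4% in day 7 mouse 2. The same order held in all 13 combinations of library and depth band that were computed. Nuclei inside a band were not matched further for depth or kind, and the source of this order was not tested.

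**Figure D1:**
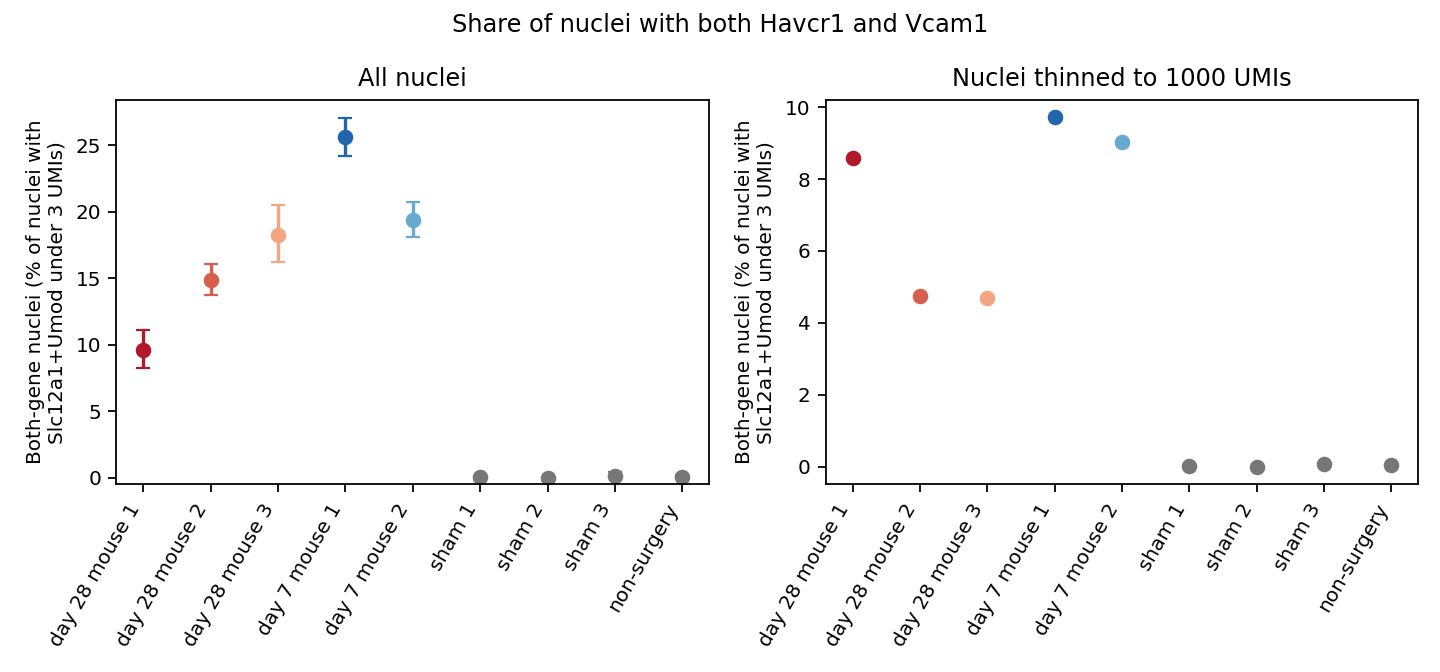
Percent of nuclei with fewer than 3 Slc12a1 and Umod UMIs that carried both genes, 1 point per library, as counted (left, bars give 95% exact binomial intervals) and after thinning each nucleus to 1000 UMIs (right). Thinned shares run from 4.70% to 8.60% at day 28 and from 9.02% to 9.72% at day 7, with the controls near 0.

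To ask what Vcam1 RNA goes with among nuclei that already carry Havcr1, both-gene nuclei were matched to Havcr1-only nuclei of the same library within 10% of their total UMIs, and nuclei with no match were left out. This gave 161, 553 and 110 pairs from 164, 557 and 240 both-gene nuclei at day 28, and 897 and 665 pairs from 932 and 667 at day 7. Havcr1 itself stood at 0.924 to 1.19 times the level of the Havcr1-only nuclei. The both-gene nuclei had higher RNA of NF-kB pathway genes and chemokines, of the injury genes Krt20 and Cd44 and of integrins, and lower RNA of proximal tubule transporters. Of 12454 genes tested, 607 (4.87%) were higher and 534 (4.29%) lower, or 9.16% in either direction, in both-gene nuclei at an adjusted p under 0.05 by edgeR's quasi-likelihood test with the library as a block. DESeq2 gave 300 higher and 273 lower. The counts were 595 and 543 without day 28 mouse 1, 350 and 329 without day 7 mouse 1 and 403 and 374 without day 7 mouse 2.

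Of the 23 NF-kB and chemokine genes tested, 19 were higher and none lower in both-gene nuclei, against 4.87% higher over all genes. Their median log2 change was 0.90, against -0.000648 over all genes. The summed level of the 23 genes was 6846, 5090.0, 5019, 4034 and 4748 CPM in both-gene nuclei and 4970.0, 3015, 3073, 2481 and 2823 CPM in Havcr1-only nuclei. In every mouse the both-gene sum was the higher, and 19 to 23 of the 23 genes lay above their own Havcr1-only level. Leaving out 1 library at a time left 18 to 21 higher, and DESeq2 left 17.

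Genes of inhibitors that NF-kB induces against itself were among those that were higher. Tnfaip3, which encodes the ubiquitin-editing enzyme A20, stood at 76.2, 127, 90.0, 97.2 and 70.1 CPM in both-gene nuclei. In Havcr1-only nuclei it stood at 37.9, 42.4, 36.9, 31.6 and 19.3 CPM (log2 change 1.61, SE 0.10, adjusted p = 1.9e-12). Nfkbia, which encodes the inhibitor that holds NF-kB in the cytoplasm, stood at 224, 124, 118, 91.3 and 82.5 CPM in both-gene nuclei and 109.5, 53.1, 58.2, 42.3 and 34.7 CPM in Havcr1-only nuclei (log2 change 1.15, SE 0.09, adjusted p = 9.1e-11). Both were higher in 5 of 5 mice. Birc3 (log2 change 0.84), a ubiquitin ligase of the TNF receptor complex, and Traf1 (1.33), an adapter of the same complex, were also higher. So were the NF-kB subunit genes Nfkb1 (0.70), Relb and Rela and the atypical inhibitor Bcl3 (0.90). Nfkb2 and Rel, the other subunits, had log2 changes of 0.65 and 0.66 with adjusted p = 0.072 and 0.051, and both passed the test once day 28 mouse 3 was left out.

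Among the secreted and surface products, Cxcl1, which draws neutrophils, stood at 946, 259, 189, 158 and 116 CPM in both-gene nuclei. It stood at 556, 91.7, 79.6, 83.3 and 55.3 CPM in Havcr1-only nuclei (log2 change 1.08, SE 0.08, adjusted p = 4.5e-11). Ccl2, which draws monocytes, stood at 573, 137, 158, 29.7 and 23.9 CPM in both-gene nuclei and 320.1, 41.8, 44.6, 11.3 and 8.57 CPM in Havcr1-only nuclei (log2 change 1.41, SE 0.12, adjusted p = 7.5e-10). Both had their highest level in day 28 mouse 1 and were higher in 5 of 5 mice. Icam1, the adhesion molecule that binds leukocyte beta2 integrins, stood at 232, 140.0, 174, 128 and 186 CPM in both-gene nuclei and 135, 47.2, 67.9, 59.2 and 83.6 CPM in Havcr1-only nuclei (log2 change 1.21, SE 0.09, adjusted p = 9.8e-12). Cxcl2 (log2 change 1.76), Cxcl10 (1.90), Cxcl16, complement C3 (0.94), Tnfaip2 (1.00) and the macrophage growth factors Csf1 (0.57) and Il34 (0.51) were higher too. The genes of the list that did not pass were Nfkb2, Rel, Ccl7 (0.91) and Cx3cl1 (0.12), and Il34 and Cxcl16 lie across other genes on the opposite strand, whose reads cannot be told apart where strand is not stated. Gm17268 lies across Ccl2 in the same way.

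The largest fold among the named genes was that of Cd83, a surface protein best known from dendritic cells. It stood at 16.0, 39.8, 57.0, 26.8 and 18.8 CPM in both-gene nuclei and 4.21, 1.61, 5.82, 2.38 and 1.71 CPM in Havcr1-only nuclei (log2 change 3.60, SE 0.25, adjusted p = 5.4e-12). The Havcr1-only level was at most 5.82 CPM and the both-gene level at least 16.0 CPM, so the groups did not overlap. Stx11 (1.52), a syntaxin of vesicle fusion, Il18rap (1.48), a chain of the interleukin-18 receptor, and Plat (1.39), which encodes tissue plasminogen activator, were the others among the 8 largest rises beside the chemokines and Tnfaip3. Gm43109, which was also higher, overlaps the start of Vcam1 on the opposite strand, from base 116128451 to 116129688 of chromosome 3. Its reads there cannot be told apart from those of Vcam1, which chose the nuclei, where strand is not stated. The rest of Gm43109 lies outside Vcam1.

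Of 20 acute injury genes tested 7 were higher and none lower, with a median log2 change of 0.23. Cd44, the hyaluronan receptor, stood at 517, 503, 614, 938 and 970.4 CPM in both-gene nuclei and 236, 178, 246, 439 and 432 CPM in Havcr1-only nuclei (log2 change 1.22, SE 0.06, adjusted p = 8.4e-16). It was higher in 5 of 5 mice. Krt20, the gene behind the tag that sorted the nuclei, stood at 24.1, 56.7, 22.1, 36.5 and 31.6 CPM in both-gene nuclei and 54.8, 19.3, 0, 20.4 and 9.86 CPM in Havcr1-only nuclei (log2 change 1.15, SE 0.20, adjusted p = 9.7e-05). It was higher in 4 of 5 mice and lower in day 28 mouse 1. Of 17 failed repair genes besides Vcam1, 9 were higher, among them Dock10 (0.65), a guanine nucleotide exchange factor, and Sox9 (0.67), a transcription factor of tubule regeneration, while Akap12 (-0.21), a scaffold of protein kinase A, and Cpeb4 (-0.38), an RNA-binding protein, were lower. The call on Akap12 was lost without day 28 mouse 2 and without day 7 mouse 1.

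The TGF-beta, matrix and integrin list had 14 of 24 genes higher and none lower, with a median of 0.28. Itgav, the integrin chain that activates latent TGF-beta, stood at 1876, 1359, 1841, 1218 and 1230.0 CPM in both-gene nuclei and 1394, 748, 998, 589 and 558 CPM in Havcr1-only nuclei (log2 change 0.92, SE 0.06, adjusted p = 9.5e-13). Itga2, a chain of a collagen receptor, and Pdgfb (0.77), a growth factor for pericytes, were also higher. Of 14 AP-1 and immediate early genes 8 were higher, among them Ier3 (1.04), Fos and Fosl1. Of 16 MHC and interferon genes 5 were higher, led by the transcription factor Irf1 (log2 change 1.14, SE 0.16, adjusted p = 3.8e-06). Itgav and Irf1 were each higher in 5 of 5 mice.

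Genes of mature proximal tubule function were mostly lower. Of 30 genes of proximal tubule transport, 18 were lower and 1 higher in both-gene nuclei, against 4.29% lower over all genes, with a median log2 change of -0.42. Lrp2 stood at 297, 309, 206, 433 and 385 CPM in both-gene nuclei and 442, 530.0, 295, 694 and 605 CPM in Havcr1-only nuclei (log2 change -0.68, SE 0.05, adjusted p = 4.5e-11). It was lower in 5 of 5 mice. Slc7a13, an amino acid transporter of the last proximal segment, stood at 48.1, 23.9, 16.5, 28.3 and 38.5 CPM in both-gene nuclei and 383, 44.0, 23.3, 96.7 and 81.9 CPM in Havcr1-only nuclei (log2 change -1.51, SE 0.15, adjusted p = 6.5e-09). Slc34a1 (-0.59), Cubn (-0.53), which encodes the partner receptor of megalin, and the urate transporter Slc22a12 (-1.13) were lower as well, and Slc4a4 (0.25), the basolateral bicarbonate transporter, was the 1 that was higher. Leaving out 1 library at a time left 13 to 18 of the 30 lower.

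Metabolic genes of the proximal tubule followed in part. Of 30 fatty acid oxidation genes 8 were lower and none higher (median -0.24), with Acsm1 at -0.79 and Acsm2 at -0.45. Of 12 gluconeogenesis and fructose genes 5 were lower (median -0.40), among them the gluconeogenic enzymes Fbp1 (-0.72) and Pck1. Of 14 proximal tubule transcription factors 4 were lower, among them Hnf4a (-0.35, a call lost without either day 7 mouse), and Esrrg (0.18) was higher. The 8 largest falls also held Slc7a12 (-1.42), Ccl28 (-1.39), Abca13 (-1.37), Egf (-1.30), Rdh16f2 (-1.17) and Cyp7b1 (-1.17). Of 18 cell cycle genes 3 were higher, with Diaph3 (0.42) and Anln (0.47) losing their calls without either day 7 mouse. Among the 20 genes named in every comparison, 11 were higher, 4 lower and 5 did not pass, with log2 changes of -0.06 to 0.18 in those 5 (Sox4, Cdh6, Top2a, Cdkn1a and Myc).

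The 10 endothelial markers summed to 24.8 to 155 CPM in both-gene nuclei and 30.9 to 139 CPM in Havcr1-only nuclei, and none of the 7 tested passed. The 12 stromal markers summed to 19.8 to 65.7 CPM in both-gene nuclei, against 49.2 to 268 CPM in Havcr1-only nuclei. The leukocyte markers (9 of 12 in the table) summed to 47.1 to 111 CPM in both-gene nuclei, against 35.5 to 63.6 CPM in Havcr1-only nuclei, and 1 of 4 tested, the MHC class II chaperone gene Cd74 (0.77), was higher. The podocyte and parietal list summed to 2047 to 2552 CPM in both-gene nuclei and 1895 to 2142 CPM in Havcr1-only nuclei, with 1 of 9 tested higher. With all nuclei left out that had 3 or more UMIs of other types' markers, 594 genes were higher and 532 lower. With 2 or more UMIs required of both genes, 622 were higher and 585 lower.

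**Figure D2:**
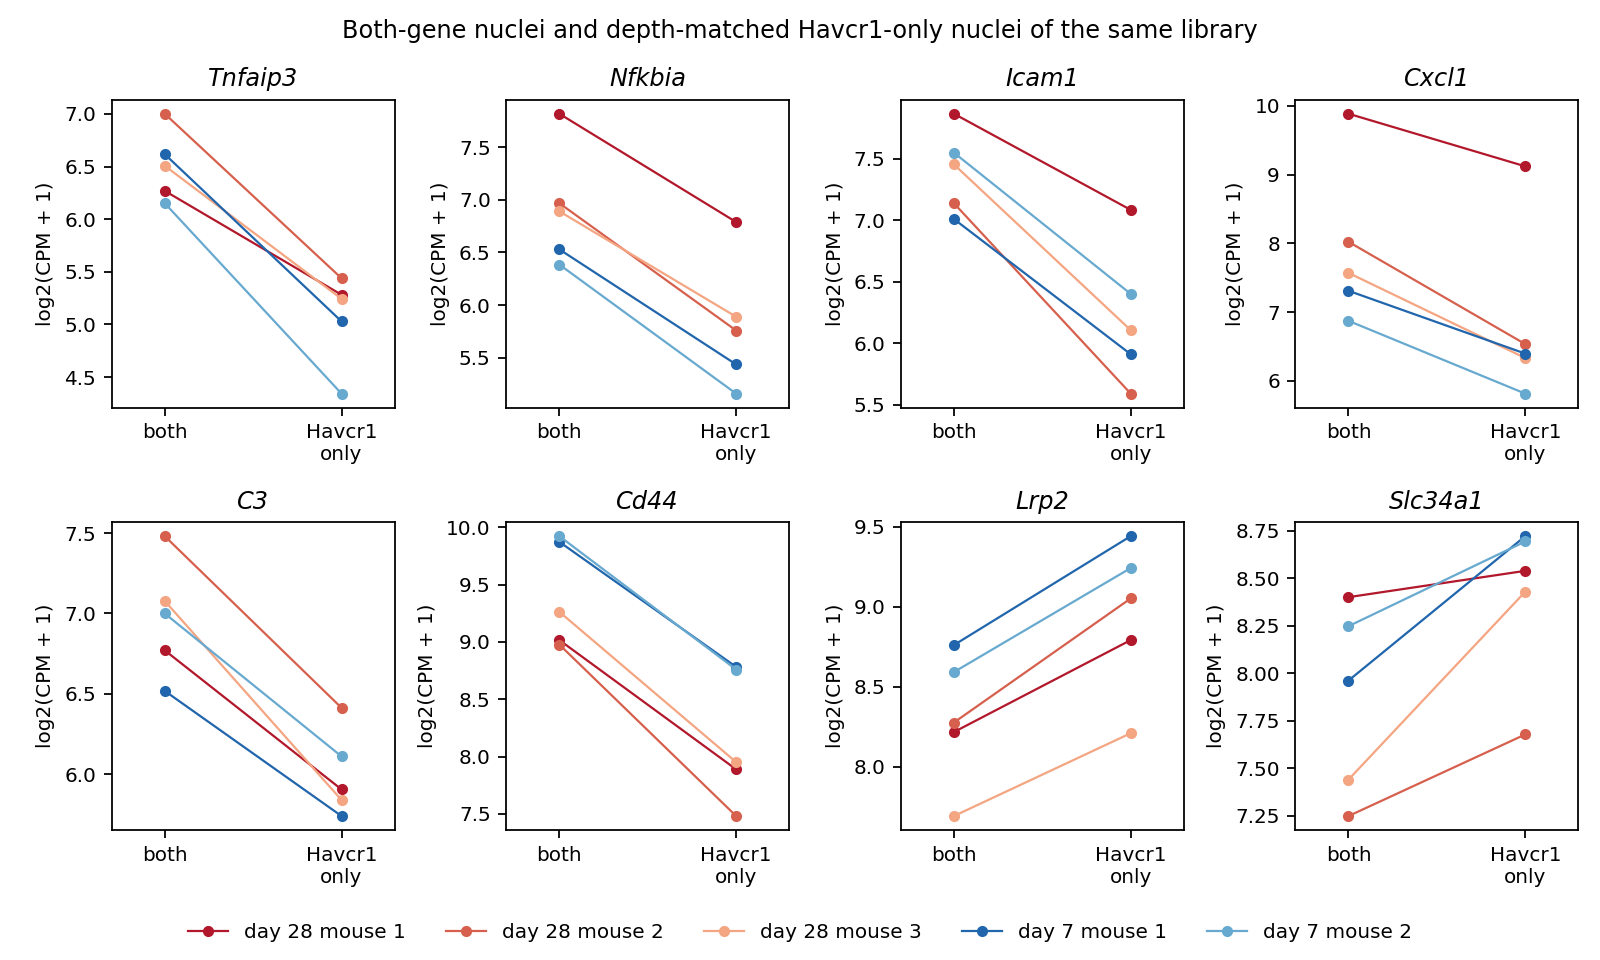
Levels in both-gene nuclei (left in each panel) and UMI-matched Havcr1-only nuclei (right) as log2(CPM + 1), 1 line per mouse. NF-kB and injury genes such as Tnfaip3, Nfkbia and Icam1 lie higher in the both-gene nuclei of all 5 mice, and proximal tubule genes such as Lrp2 lie lower.

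The second comparison set both-gene nuclei against Vcam1-only nuclei, with 160, 537 and 234 pairs at day 28, and 164 and 177 pairs at day 7, where most of the 932 and 667 both-gene nuclei found no match and were left out. Both comparisons use both-gene nuclei of the same libraries, so their values are set side by side and not counted as 2 pieces of evidence. Vcam1 stood at 1.06 to 1.21 times the Vcam1-only level. Both-gene nuclei had higher RNA of acute injury and failed repair genes and of the transcription factor Runx1, and proximal tubule transporters were again lower. Of 8636 genes tested, 415 (4.81%) were higher and 461 (5.34%) lower, or 10.1% in either direction. DESeq2 gave 163 higher and 189 lower, and the counts were 361 and 439 without day 28 mouse 1 and 261 and 302 without day 28 mouse 2.

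Runx1, a transcription factor known for blood development, stood at 518, 438, 389, 419 and 407 CPM in both-gene nuclei. In Vcam1-only nuclei it stood at 278, 198, 141, 133 and 151 CPM (log2 change 1.31, SE 0.09, adjusted p = 7.4e-12). Akap12 stood at 788, 596, 165, 417 and 281 CPM in both-gene nuclei and 247, 318, 79.1, 158 and 110.4 CPM in Vcam1-only nuclei (log2 change 1.19, SE 0.10, adjusted p = 1.9e-10). Both were higher in 5 of 5 mice. Against Havcr1-only nuclei the log2 change was 0.25 for Runx1, a call lost without day 28 mouse 2 and without day 7 mouse 2, and -0.21 for Akap12. Ctgf, a known target of the YAP coactivator, headed the 8 largest rises, at 62.0, 80.7, 25.0, 14.4 and 44.4 CPM in both-gene nuclei and 26.5, 25.9, 10.9, 1.93 and 18.9 CPM in Vcam1-only nuclei. Ankrd1, another known YAP target, had a log2 change of 1.43, and Fosl1, an AP-1 subunit, 2.05. S100a6 (1.34), a calcium-binding protein, Basp1 (1.28), Tnfrsf23 (1.34), Plat (1.28) and Cxcl2 (1.27) completed the 8 largest rises with Runx1, a rule that asks for at least 20 CPM and so leaves out Fosl1.

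Of 16 acute injury genes besides Havcr1, 10 were higher and none lower (median 0.67), with a summed level of 3692, 2284, 2134, 2458 and 2726 CPM in both-gene nuclei and 2299, 1640.0, 1192, 1246 and 1759 CPM in Vcam1-only nuclei. Cd44 stood at 571, 522, 667, 929.6 and 1025 CPM in both-gene nuclei and 428, 272, 266, 424 and 754 CPM in Vcam1-only nuclei (log2 change 0.90, SE 0.10, adjusted p = 3.4e-08). Osteopontin, encoded by Spp1, stood at 1554, 875, 771, 759 and 924 CPM in both-gene nuclei and 1050.0, 802, 425, 341 and 614 CPM in Vcam1-only nuclei (log2 change 0.62, SE 0.09, adjusted p = 1.3e-05). Both were higher in 5 of 5 mice. Krt20 had a log2 change of 1.00, and its call was lost without day 28 mouse 2. Of 17 failed repair genes 13 were higher and 1 lower (median 0.45), among them Psd3 (0.77), Sox9 (0.61), Il34 (0.45) and Ccl2 (0.67), with Cpeb4 (-0.57) the lower one.

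The NF-kB and chemokine list was higher in 12 of 22 genes and lower in none (median 0.42). Tnfaip3 (1.15), Traf1 (1.00), Nfkb1 (0.64), Cxcl1 (1.09) and Birc3 were higher here too. Nfkbia, Icam1, C3 and Dock10, higher against Havcr1-only nuclei, did not pass against Vcam1-only nuclei. Nfkbia stood at 252, 129, 133, 75.5 and 81.3 CPM in both-gene nuclei and 339.7, 116, 123, 73.2 and 86.2 CPM in Vcam1-only nuclei (log2 change 0.01, SE 0.11, adjusted p = 0.99). Icam1 stood at 270.0, 148, 161, 88.1 and 199.7 CPM in both-gene nuclei and 176, 99.4, 119.5, 121 and 180.4 CPM in Vcam1-only nuclei (log2 change 0.33, SE 0.12, adjusted p = 0.077), and passed without day 7 mouse 1. C3 had 0.24 with adjusted p = 0.21, and Dock10 0.18 with adjusted p = 0.13. None of 12 MHC and interferon genes passed. Whether a gene differs more against one kind of nucleus than against the other was not tested.

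Proximal tubule genes were lower against Vcam1-only nuclei as well: 14 of 27 transport genes were lower and none higher (median -0.59). Slc34a1 stood at 345, 137, 256, 232 and 328 CPM in both-gene nuclei and 653, 330.0, 654, 768 and 609 CPM in Vcam1-only nuclei (log2 change -1.27, SE 0.09, adjusted p = 8.7e-12). Slc5a12, a lactate transporter of the early proximal tubule, stood at 93.0, 92.8, 159.8, 30.6 and 76.4 CPM in both-gene nuclei and 304, 312, 396, 162 and 215 CPM in Vcam1-only nuclei (log2 change -1.62, SE 0.11, adjusted p = 7.4e-12). Both were lower in 5 of 5 mice, and over the mice the Slc5a12 levels did not overlap. Lrp2 (-0.97), Dab2 (-0.94), an adapter of megalin endocytosis, Slc22a12 (-1.70) and Gatm (-1.75), an enzyme of creatine synthesis, were lower, as were the transcription factors Maf (-0.99) and Hnf4a (-0.67). All 5 of the 10 gluconeogenesis and fructose genes that passed were lower (median -0.77). Other large falls were those of Pde3a (-2.37), Cped1 (-1.86), Nlrp6 (-1.59) and Slc16a14 (-1.56).

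Stromal markers summed to 12.9 to 60.2 CPM in both-gene nuclei and 47.6 to 169.6 CPM in Vcam1-only nuclei, and endothelial markers to 25.3 to 154 CPM in both-gene nuclei and 55.2 to 293 CPM in Vcam1-only nuclei. Leukocyte markers summed to 47.5 to 108 CPM in both-gene nuclei and 61.3 to 152 CPM in Vcam1-only nuclei. Of 5 endothelial genes tested, 1 was lower (Emcn, -1.06, a call lost without day 28 mouse 2, day 28 mouse 3 or day 7 mouse 2). The part these cells have in the differences was not tested, and with nuclei of 3 or more such UMIs left out 384 genes were higher and 391 lower. Of the 20 genes named in every comparison 9 were higher, 4 lower and 7 did not pass.

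**Figure D3:**
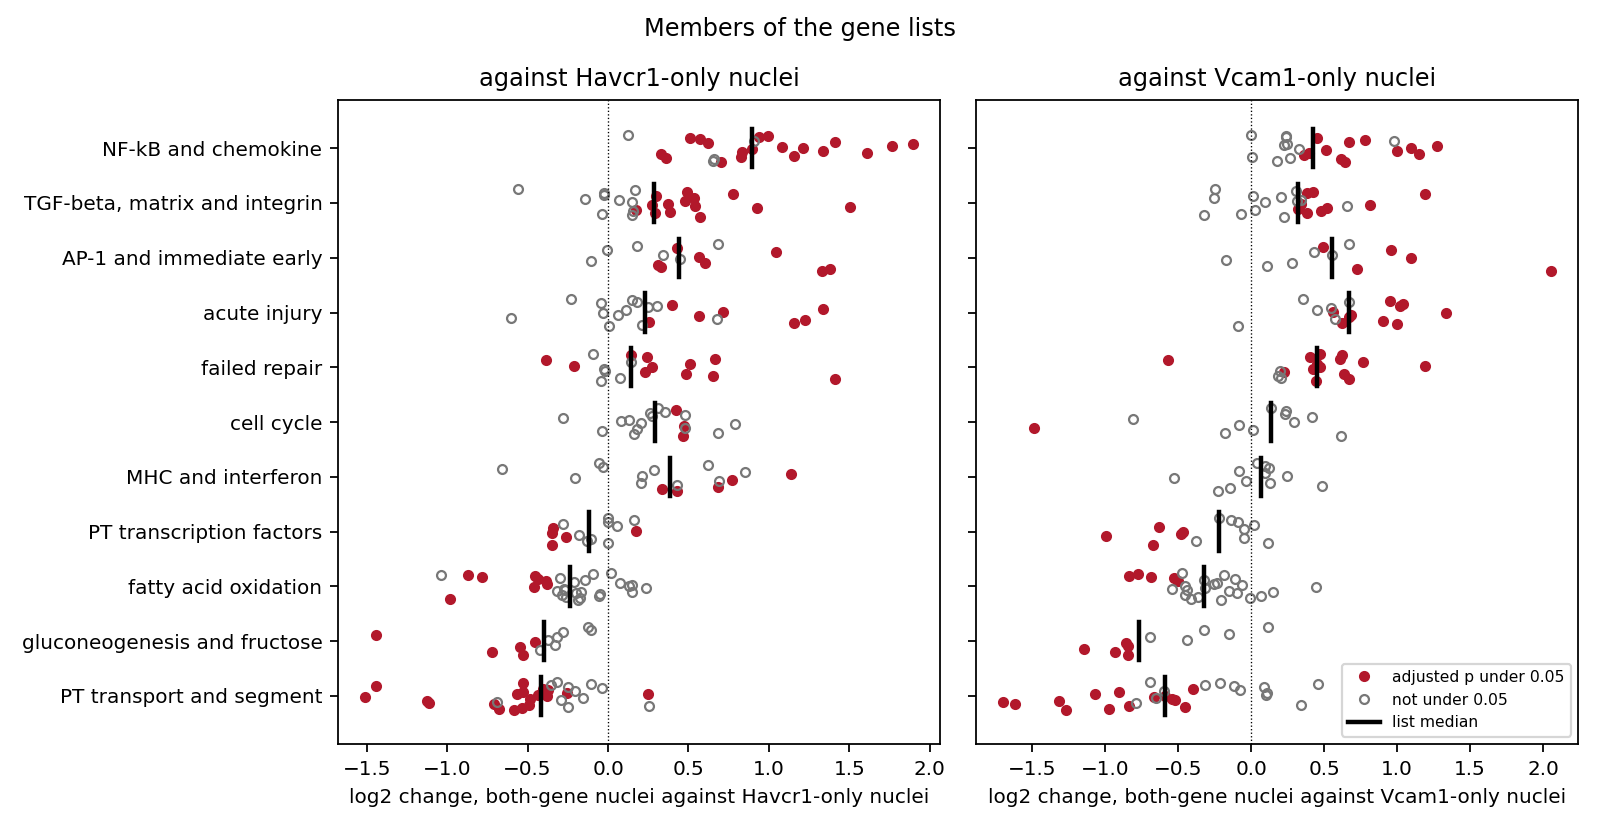
Log2 change of every tested gene of 11 lists in both-gene nuclei against Havcr1-only nuclei (left) and against Vcam1-only nuclei (right); filled points have an adjusted p under 0.05, open points do not, and the bar is the list median. The NF-kB and chemokine list has its median at 0.90 against Havcr1-only nuclei and 0.42 against Vcam1-only nuclei, and proximal tubule transport lies at -0.42 and -0.59.

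The both-gene nuclei also differed among themselves. Those with more Havcr1 than Vcam1 UMIs (44, 218 and 62 at day 28, and 631 and 397 at day 7) were set against those with more Vcam1 (81, 227 and 139 at day 28, and 161 and 119 at day 7) of the same mouse. The nuclei with more Havcr1 had lower RNA of NF-kB genes and chemokines and higher RNA of Akap12, Runx1 and Ctgf. Of 10174 genes tested, 53 (0.521%) were higher and 80 (0.786%) lower in the nuclei with more Havcr1, or 1.31% in either direction. DESeq2 gave 19 higher and 35 lower. The counts were 40 and 58 without day 28 mouse 1, 25 and 38 without day 28 mouse 2, 81 and 117 without day 28 mouse 3 and 24 and 24 without day 7 mouse 1. The groups were not matched for depth. They were split by the UMIs of 2 genes of the rule, and most of the both-gene nuclei also entered the first comparison. The values are thus set beside those above and not counted as further evidence.

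Of 23 NF-kB and chemokine genes, 11 were lower and none higher in nuclei with more Havcr1 (median -0.45, against -0.0017 over all genes). Their summed level was 5677, 4851, 4700.0, 3696 and 4781 CPM in nuclei with more Havcr1 and 8166, 6084, 5551, 5087 and 5286 CPM in nuclei with more Vcam1. Icam1 stood at 139, 98.5, 103, 104 and 184 CPM in nuclei with more Havcr1 and 383, 199, 187, 231 and 234 CPM in nuclei with more Vcam1 (log2 change -0.89, SE 0.12, adjusted p = 4.8e-06). Irf1 stood at 41.6, 28.9, 21.8, 26.9 and 32.7 CPM in nuclei with more Havcr1 and 141, 63.9, 82.0, 59.9 and 59.6 CPM in nuclei with more Vcam1 (log2 change -1.20, SE 0.18, adjusted p = 6.8e-05). Both were lower in 5 of 5 mice. C3 (-0.83), Ccl2 (-0.90, lower in 4 of 5 mice), Cxcl2 (-0.97) and Cd83 (-1.63) were lower too, as were Nfkbia (-0.73) and Tnfaip3 (-0.59), whose calls were lost without day 7 mouse 1. Leaving out 1 library at a time left 6 to 12 of the 23 lower. The leukocyte markers summed to 86.9, 32.6, 67.7, 58.5 and 66.3 CPM in nuclei with more Havcr1 and 120, 58.7, 62.4, 75.7 and 28.6 CPM in nuclei with more Vcam1. Neither of the 2 leukocyte genes tested passed, and the part of these cells in the result was not tested.

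On the other side, Akap12 stood at 1041, 848, 243, 384 and 319.7 CPM in nuclei with more Havcr1 and 563, 464, 118, 226 and 229 CPM in nuclei with more Vcam1 (log2 change 0.80, SE 0.09, adjusted p = 2.4e-07). Runx1 stood at 541, 507, 527, 494 and 378 CPM in nuclei with more Havcr1 and 500.1, 409, 282, 274 and 248 CPM in nuclei with more Vcam1 (log2 change 0.62, SE 0.09, adjusted p = 6.8e-05). Both were higher in 5 of 5 mice. Ctgf (1.40), a matricellular protein, and Rras2 (0.70), a small GTPase, were higher under every left-out library. Gm20663 (0.98), Efemp1 (0.90), Fn1 (0.86), Ncam1 (0.76) and Parm1 (0.71) completed the 8 largest rises. The call on Ncam1 was lost without day 28 mouse 3, that on Fn1 without any 1 of the 5 libraries, that on Efemp1 without any but day 28 mouse 3, and that on Parm1 without day 28 mouse 1, day 28 mouse 2 or day 7 mouse 2.

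The failed repair list split. Of 17 genes besides Vcam1, 6 were higher in nuclei with more Havcr1: Akap12, Ncam1, Pdgfd (0.41), Dcdc2a (0.39), Psd3 (0.38) and Cdh6 (0.36). The 2 that were lower were Ccl2 and Dock10 (-0.50). The cadherin gene Cdh6 lost its call without day 28 mouse 2, without day 7 mouse 1 and without day 7 mouse 2, and Psd3 and Slc34a1 theirs without day 28 mouse 2 and without day 7 mouse 2. Slc34a1 (-0.47) was the 1 of 27 proximal tubule transport genes that passed, and none of 13 cell cycle genes did. The largest falls were those of Gm43109, which overlaps the start of Vcam1, and of Kcnn1 (-2.22), Mgat4c (-2.18), Cd83, Nfkbie (-1.24), Fam167a (-1.20), Irf1 and Ccdc85a (-1.16). Without day 7 mouse 1 the calls on Mgat4c, Nfkbie, Fam167a and Ccdc85a were lost, without day 28 mouse 2 those on Nfkbie, Fam167a and Ccdc85a, and that on Ccdc85a also without day 28 mouse 1 or mouse 3. With 2 or more UMIs required of both genes, 13 genes were higher and 24 lower. Of the 43 named calls with a value under that limit, 30 were lost. Of all 44 named calls, 28 were lost on leaving out at least 1 of the libraries.

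**Figure D4:**
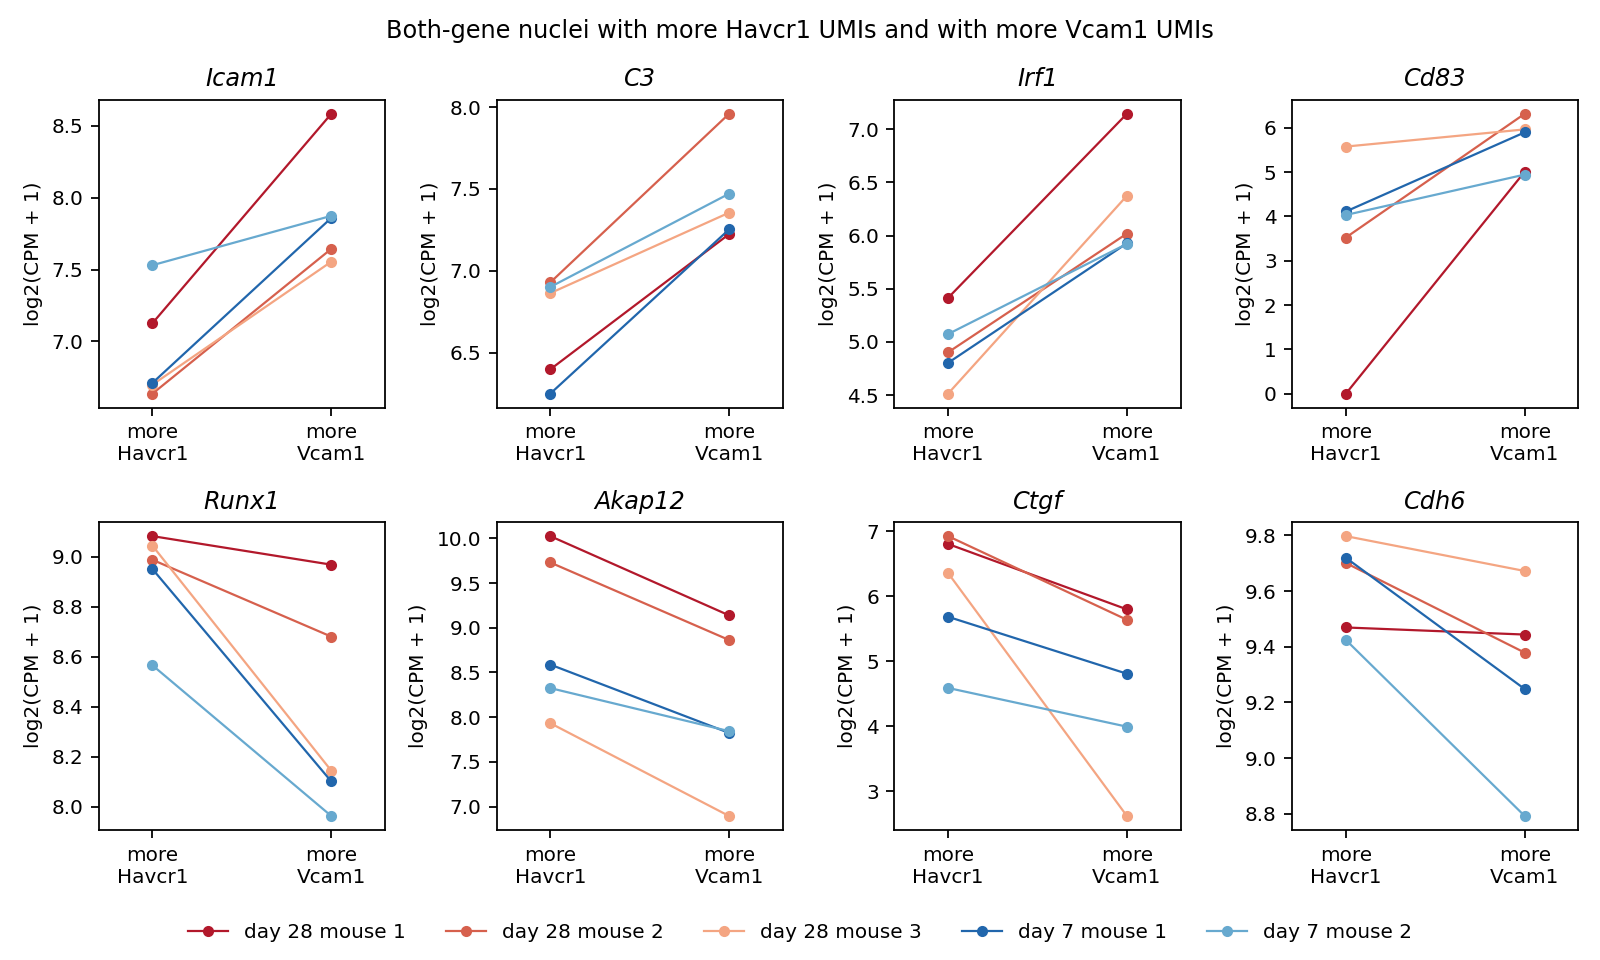
Levels in both-gene nuclei with more Havcr1 UMIs (left) and with more Vcam1 UMIs (right) as log2(CPM + 1), 1 line per mouse. Icam1, C3, Irf1 and Cd83 lie lower in nuclei with more Havcr1, and Runx1, Akap12, Ctgf and Cdh6 lie higher, in each of the 5 mice.

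Between the days, the both-gene nuclei of day 28 had lower RNA of cell division genes and higher RNA of a few chemokines and of Tgfb2 than those of day 7. NF-kB subunits, injury genes and proximal tubule genes did not pass the test between the days, with few exceptions. Of 11646 genes tested in 3 against 2 libraries, 415 (3.56%) were higher and 112 (0.962%) lower at day 28, or 4.53% in either direction. These counts moved with each library left out, to 760 higher and 393 lower without day 28 mouse 1, 161 and 25 without day 28 mouse 2, 227 and 33 without day 28 mouse 3, 117 and 13 without day 7 mouse 1 and 63 and 6 without day 7 mouse 2. The counts were summed over the nuclei of each library, so fewer nuclei with a transcript and less of it per nucleus were not told apart here. Beyond the interaction given below, the days were not compared in one-gene nuclei, so these changes are not shown to be particular to both-gene nuclei. In Vcam1-only nuclei Cenpf stood at 13.2, 0 and 2.53 CPM at day 28 and 67.4 and 48.5 CPM at day 7. Mki67 stood there at 44.1, 2.35 and 2.53 CPM and at 28.9 and 13.5 CPM. The Ccl2 levels of Havcr1-only nuclei given above were also higher at day 28.

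Of 17 cell cycle genes, 9 were lower and none higher at day 28 (median log2 change -2.24, against 0.00402 over all genes). They summed to 125, 187 and 112 CPM at day 28 and 498 and 505 CPM at day 7. Diaph3, which encodes a formin, stood at 11.7, 13.4 and 9.97 CPM at day 28 and 97.4 and 89.9 CPM at day 7 (log2 change -2.98, SE 0.26, adjusted p = 0.00092). Top2a, the topoisomerase of dividing cells, stood at 3.89, 3.60 and 2.30 CPM at day 28 and 25.8 and 30.4 CPM at day 7 (log2 change -3.14, SE 0.40, adjusted p = 0.0036). The ranges of the days did not overlap for either gene, and the call on Diaph3 held under every left-out library whereas that on Top2a was lost without day 7 mouse 2. Cenpf, a kinetochore gene, had 3 UMIs over all day 28 libraries, against 148 and 56 UMIs in day 7 mice 1 and 2. Anln (-2.69), Kif11 (-3.70), Cenpe (-2.79), Knl1 (-2.59), Mki67 (-2.15) and Ect2 (-1.54) were the other 6. Without day 7 mouse 2 all of these 6 lost their calls, without day 28 mouse 3 all but Anln, without day 7 mouse 1 all but Anln and Kif11, and without day 28 mouse 2 Kif11, Knl1, Mki67 and Ect2, while Cenpf lost its call without day 7 mouse 1. Leaving out 1 library left 10 of the list lower without day 28 mouse 1, 6 without day 28 mouse 2, 4 without day 28 mouse 3, 4 without day 7 mouse 1 and 2 without day 7 mouse 2. The 10 endothelial markers summed to 129, 25.1 and 62.4 CPM at day 28 and 147 and 146 CPM at day 7, with 1 of 7 tested (Ptprb, a call lost without any 1 of day 28 mouse 2, day 28 mouse 3 and the day 7 mice) lower, and with nuclei carrying other types' markers left out 7 of 15 cell cycle genes were lower.

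Of 23 NF-kB and chemokine genes, 4 were higher at day 28 and none lower (median 0.36). Ccl2 stood at 584, 133 and 127 CPM at day 28 and 28.6 and 23.6 CPM at day 7 (log2 change 3.26, SE 0.65, adjusted p = 0.024). It was highest in day 28 mouse 1, and all 3 day 28 mice lay above both day 7 mice, and Gm17268, which lies across it, was also among the 8 largest rises (5.89), a call lost without either day 7 mouse. The leukocyte markers (9 of 12 in the table) summed to 106, 47.4 and 64.6 CPM at day 28 and 61.6 and 62.8 CPM at day 7, and the 12 stromal markers to 41.6, 19.3 and 57.95 CPM at day 28 and 49.2 and 57.5 CPM at day 7. None of the 4 leukocyte and 3 stromal genes tested passed, and the part of these cells in the chemokine levels was not tested. Cxcl16, a chemokine of lymphocytes, stood at 144, 69.0 and 69.8 CPM at day 28 and 30.0 and 31.7 CPM at day 7 (log2 change 1.47, SE 0.32, adjusted p = 0.035). Cxcl10 (1.33) and Nfkbiz (0.78) were the other 2. The calls on Ccl2, Cxcl16, Cxcl10 and Nfkbiz were lost without either day 7 mouse, those on Cxcl16, Cxcl10 and Nfkbiz also without day 28 mouse 2, and those on Cxcl16 and Nfkbiz without day 28 mouse 3; without day 28 mouse 1 the list had 8 genes higher. Nfkb1 stood at 615, 588 and 699.6 CPM at day 28 and 693 and 673 CPM at day 7 (log2 change -0.11, SE 0.17, adjusted p = 0.80), and its ranges overlapped between the days.

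Tgfb2, which encodes a TGF-beta ligand, stood at 70.1, 83.9 and 72.1 CPM at day 28 and 28.5 and 19.4 CPM at day 7 (log2 change 1.65, SE 0.26, adjusted p = 0.0078). It was the 1 of 24 TGF-beta, matrix and integrin genes to pass. Cd44 stood at 545, 499 and 625 CPM at day 28 and 906 and 972 CPM at day 7 (log2 change -0.75, SE 0.18, adjusted p = 0.045), and was the 1 of 20 acute injury genes to pass. The calls on Tgfb2 and Cd44 were lost without day 28 mouse 2 and without either day 7 mouse, and that on Cd44 also without day 28 mouse 3. Krt20 stood at 23.4, 55.1 and 19.2 CPM at day 28 and 35.3 and 31.7 CPM at day 7 (log2 change 0.09, SE 0.40, adjusted p = 0.94). Lrp2 had a log2 change of -0.46 with adjusted p = 0.21, and Slc13a3 (-1.66) and Aqp1 (-1.54) were the 2 of 29 proximal tubule transport genes that were lower. Pkm (-1.92), a glycolytic enzyme, and Gpx3 (-2.26) and Ggt1 (-1.84), of glutathione metabolism, were lower, and the AP-1 subunit gene Junb (2.48), Acsm1 (2.15) and Gulp1 (1.29), an adapter of apoptotic cell uptake, higher. These 8 calls were all lost without day 7 mouse 2, all but that on Ggt1 without day 7 mouse 1, all but that on Pkm without day 28 mouse 3, and all but those on Slc13a3 and Junb without day 28 mouse 2. Of 29 fatty acid oxidation genes, Acsm1 was the 1 higher and Acsm2 (-1.07, adjusted p = 0.024 by edgeR) the 1 lower. Acsm1 lies across Gm19950 and Junb across Prdx2 on the opposite strand, whose reads cannot be told apart where strand is not stated. Of the 20 genes named in every comparison 17 did not pass, with log2 changes of -0.46 to 0.78.

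The genes higher at day 28 were for the most part not protein-coding. Of the 415, 227 (54.7%) had another biotype, 181 of them antisense and 46 lincRNA, against 6.41% of the genes tested. Sorbs2os, antisense to Sorbs2, stood at 23.4, 61.8 and 65.2 CPM at day 28 and 0.955 and 0 CPM at day 7, and Gm38251, antisense to Mark1, at 46.7, 16.5 and 18.4 CPM at day 28 with no UMI in either day 7 library. 4930444A19Rik, Gm13601 and the coding genes B3galt2 and Kctd4, which each lie across another gene on the opposite strand, and AC164425.1 were the others among the 8 largest rises. Without day 28 mouse 1, 302 of 760 (39.7%) had another biotype. The share of Malat1 moved with the days in the same libraries, at 16.0% to 17.6% at day 28, against 6.74% and 10.3% at day 7. Its part in the result, and that of the kit, was not tested. Besides cell division genes, the largest falls were those of Csmd1 (-3.07), which held under every left-out library, and of the lincRNAs Lockd (-3.94) and Gm48099 (-4.51), whose calls were lost without day 28 mouse 2 and without day 7 mouse 2, and that on Gm48099 also without day 28 mouse 3.

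**Figure D5:**
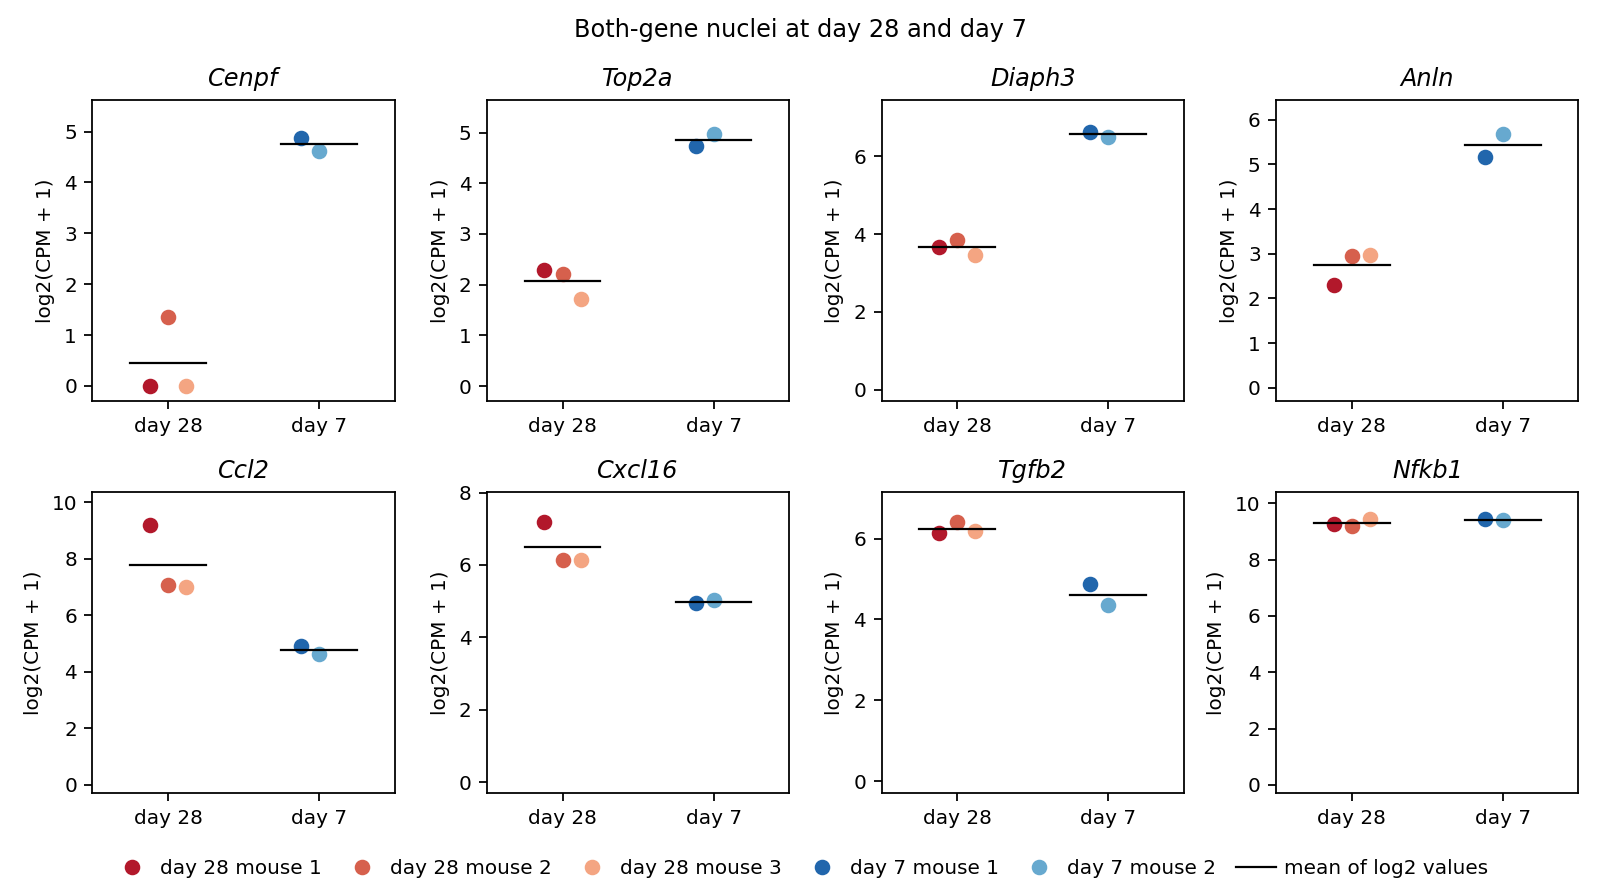
Levels in both-gene nuclei of day 28 (left) and day 7 (right) as log2(CPM + 1), with 1 point per mouse and a bar at the mean of the log2 values. Cenpf, Top2a, Diaph3 and Anln lie lower at day 28 in all 3 mice, Ccl2, Cxcl16 and Tgfb2 lie higher, and the Nfkb1 points of the days overlap.

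Whether the differences from one-gene nuclei themselves changed between the days was tested as an interaction. Against Havcr1-only nuclei, 0 genes had a higher and 4 (0.0321%) a lower difference at day 28 than at day 7, with 192 and 343 at an unadjusted p under 0.05 by edgeR, and 0 lower by DESeq2. Against Vcam1-only nuclei, 14 (0.162%) were higher and 11 (0.127%) lower, or 0.289% in either direction. DESeq2 left 0 higher and 1 lower there, and the counts were 35 and 18 without day 28 mouse 1, 9 and 6 without day 28 mouse 2, 0 and 4 without day 28 mouse 3 and 1 and 1 without day 7 mouse 1. From Havcr1-only nuclei they were 2 and 5 without day 28 mouse 1, 0 and 0 without day 28 mouse 2, 0 and 1 without day 28 mouse 3 and 1 and 3 without day 7 mouse 2. None of the 4 is on the NF-kB or the proximal tubule transport list. Dab2 was among the 14, and its difference of both-gene from Vcam1-only nuclei was larger at day 7 than at day 28.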

How the data were processed

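The deposited tables hold UMI counts per gene and nucleus, not normalized, for 9 single-nucleus libraries. Per the submitters' processing notes the authors used Cell Ranger, STAR and Seurat with build mm10; versions, and whether counting used strand, are not stated. The IRI table held 19342 genes and 14622 nuclei and the one of the controls 17455 genes and 13116 nuclei. Samples were grouped by the labels' day and treatment.

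Nuclei were classed by the counts of Havcr1, Vcam1, Slc12a1 and Umod, and one-gene nuclei were matched 1 to 1 with both-gene nuclei of their library to within 10% of total UMIs, and unmatched nuclei left out. Counts were summed per library and class and tested with edgeR 4.0.16 (R 4.3.3; quasi-likelihood test, TMM scaling, filterByExpr, Benjamini-Hochberg adjustment over all genes tested), with the library as a block where both classes come from the same mouse and without it between the days. CPM are per 1000000 UMIs of the genes tested, TMM-scaled, and the SE is the absolute log2 change divided by the square root of F. Shares were compared by exact permutation (scipy 1.17.1). The scripts were tested on simulated data. Depth limits the precision: the summed UMIs behind each class and library ran from 69066 (more Havcr1, day 28 mouse 1) to 5159742 (all both-gene nuclei, day 7 mouse 1).

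Classes of the same mouse share their library, and in all 15 of 15 cases the same-library deviations correlated best with their own (0.408 to 0.886), which is the pairing behind the block. No doublet caller was run; per the labels' protocols doublets were gated out in the sort. Alternatives were DESeq2 1.42.0, DESeq2 size factors, no low-count filter, no block, unmatched nuclei, other limits on the rule, and each library left out. Ties in Havcr1 and Vcam1 were left out of the comparison of more Havcr1 with more Vcam1.

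The named genes were, per comparison, the 8 largest rises and 8 largest falls among genes with adjusted p under 0.05, at least 20 CPM in the higher group and the same direction in every mouse (no overlap between the days), the 2 members of each list with the smallest p, and 20 genes named throughout. Further list members were named after their values were seen. Some genes that the rule names are not reported here. The members and lists were chosen with earlier results of these data known.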

Additional observations from a re-analysis of the deposited data

Results flagged for a closer look

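The difference between both-gene and one-gene nuclei was itself tested between the days, by the interaction of class and day in edgeR's quasi-likelihood test, with log2 values given as day 28 minus day 7. Against Havcr1-only nuclei it passed for 4 genes, among them Cyp7b1 (-1.46), Pde3a (-2.74) and Slit3 (-3.36). These 3 calls were lost without day 28 mouse 2 and without day 7 mouse 2, those on Pde3a and Slit3 also without day 28 mouse 3, that on Cyp7b1 without day 28 mouse 1 and that on Pde3a without day 7 mouse 1.

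Against Vcam1-only nuclei it passed for 25 genes, among them Csmd1 (-2.79), Slc8a1 (-3.14), Egfem1 (-4.28), Cdh6 (-0.60), Kcnh8 (-0.72), Dab2 (0.57) and Timd2 (1.16). Csmd1 stood at 53.1, 19.0 and 32.5 CPM in both-gene and 150.0, 141.8 and 141.4 CPM in Vcam1-only nuclei at day 28. At day 7 it stood at 138.4 and 135.6 CPM in both-gene and 98.2 and 110.4 CPM in Vcam1-only nuclei, and its call held with any 1 library left out. The call on Slc8a1 was lost without day 7 mouse 1, that on Egfem1 without day 28 mouse 3 or day 7 mouse 1, and those on Cdh6, Kcnh8, Dab2 and Timd2 without any 1 of day 28 mouse 2, day 28 mouse 3, day 7 mouse 1 and day 7 mouse 2. Timd2 lies beside its relative Havcr1, which chose the nuclei.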

How the results depend on the processing

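Counts are given as genes higher and genes lower. Both-gene against Havcr1-only nuclei gave 300 and 273 with DESeq2 and 350 to 607 and 329 to 578 with 1 library left out. Against Vcam1-only nuclei they were 163 and 189 with DESeq2 and 261 to 361 and 302 to 439 with 1 library left out. Between the days they were 193 and 54 over nuclei with 1000 to under 3000 UMIs (chosen after seeing the data), 913 and 425 with no low-count filter, 237 lower over nuclei with 2000 or more UMIs, and 63 to 760 and 6 to 393 with 1 library left out, highest without day 28 mouse 1 and lowest without day 7 mouse 2. For more Havcr1 against more Vcam1 they were 19 and 35 with DESeq2, 13 and 24 with 2 or more UMIs of both genes, 87 higher with no low-count filter, and 24 to 81 and 24 to 117 with 1 library left out. The cause of these moves was not tested.

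For the day difference from Havcr1-only nuclei, lower genes were 0 with DESeq2 and 2 each with 2 or more UMIs of both genes, without nuclei of other types' markers and with Slc12a1 and Umod at 0; 1 was higher with no low-count filter, and leaving out 1 library gave 0 to 2 and 0 to 5. From Vcam1-only nuclei there were 0 and 1 with DESeq2, 0 and 1 with no low-count filter, and 9, 22 and 24 higher under those 3 limits, with 0 to 35 and 1 to 18 on leaving out 1 library.

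Without the library block, which drops the pairing of classes from 1 mouse, the counts were 1 and 0 against Havcr1-only nuclei, 0 and 0 against Vcam1-only nuclei, 0 and 0 for more Havcr1 against more Vcam1, 0 lower for the day difference from Havcr1-only nuclei and 0 and 0 from Vcam1-only nuclei. Between the days replicate numbers do not pair the mice (correlations -0.103 and -0.141), and a block on them gave 469 and 102. The thinned share difference kept its sign, with -2.70 points under that block, -4.65 to -2.70 on leaving out 1 library, -1.25 thinned to 500 UMIs, -8.66 thinned to 2000 UMIs and -8.24 unthinned.

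Of the named genes, 4 changed sign under some setting, none of them where the value had passed except Slit3 (1.27 with 2 or more UMIs of both genes). Cx3cl1 against Havcr1-only nuclei ran from -0.0703 to 0.22 with 1 library left out. Nfkbia against Vcam1-only nuclei was -0.0189 with DESeq2, -0.11 without the block, -0.0634 unmatched and -0.0724 to 0.10 with 1 library left out. Krt20 between the days was -0.046 with Slc12a1 and Umod at 0 and -0.71 to 0.45 with 1 library left out. Over 250 gene results and 3186 values, 2579 kept direction and call, 568 lost the call, 29 gained it and 10 changed sign.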
